A study of Caenorhabditis elegans with 2 samples.

Results

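Strong peaks just downstream of coding starts are the 476 of 30000 peaks in the pooled list whose signal was among the 3000 highest and whose summit, the point of highest signal, lay 0 to 1000 bp downstream of the nearest start of a protein-coding transcript. The list comes from ChIP-seq of CEH-24 in *Caenorhabditis elegans*, an assay that sequences the DNA fragments pulled down with a protein, here with an antibody against GFP. Both biological replicates were whole late embryos of mixed sex from strain OP673, with the genotype unc-119 (tm4063) III; wgIs673, collected 5 h after synchronization by egg bleaching. They form 1 group, with no second stage, genotype or untagged strain among the samples analysed here. The worms stably carried CEH-24 with GFP and FLAG at its C terminus, so the signal is that of the tagged protein, and it is averaged over all cell types of the embryo.

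The protein belongs to the NK-2 class of homeodomain transcription factors, which bind sites with the core AAGTG. In worms it is known for roles in sublateral motor neurons and in a few muscles of the pharynx and the vulva. A transcription factor can contact DNA upstream of a gene, in the promoter, and also inside the gene, where first introns of worm genes often carry regulatory sequence.

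The members were chosen by signal and position, as follows. Of the 3000 highest peaks, 327 had the summit within 250 bp of a tRNA, snoRNA, snRNA or rRNA gene and were left out, as were 222 that lay upstream of 2 genes on opposite strands. Of the others, 650 lay upstream of their nearest coding start, 476 downstream and 1325 more than 1000 bp from any start. The pooled signal of the members ranged from 53.7 to 312, with a median of 59.5, on the authors' own scale. It chose them and is given as a description. The peak at rank 3000 had a signal of 53.73 and the next one 53.73 as well, so the list has no gap at its lower edge. Just inside that edge were peaks at Y45F10C.6, ZC416.2 and Y71G12B.23, and just outside it downstream peaks at aakg-1, ndua-7 and K07C5.13, all with a signal between 53.7 and 53.8. At the short edge, members at fbxa-206 and lin-14 lay 4 bp and one at cwf-19L1 7 bp past the start, whereas summits 1 bp upstream of brc-1 and 6 bp upstream of frpr-21 and ubq-1 were not members. At the long edge, tyr-5, W07G1.7 and kal-1 lay at 997, 995 and 993 bp, and ugt-50, herc-1 and col-118 fell outside at 1006, 1009 and 1011 bp. At the RNA gene edge, members at ceh-43, twk-5 and his-72 had such a gene at 258, 278 and 374 bp, and peaks at Y75B12B.11, F47E1.1 and Y22D7AL.6 had one at 216, 196 and 178 bp.

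The members were set beside 2 other sets from the same list. The lower-ranked downstream peaks are the 5601 peaks beyond rank 3000 that met the same position rules, and the strong upstream peaks are the 650 named above. Shares carry Wilson 95% intervals and differences between shares Newcombe 95% intervals, which cover counting error over peaks alone. Peaks of 1 list are not replicates, so no p-value is given. The sources used here hold peak lists and no read totals, so sequencing depth is not known for either replicate.

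Sequences of 8 intronic members are shown first, because the rest of the account refers to them. Each is 101 bases centred on the summit, plus strand, build ce11 (WBcel235), read from the RefSeq genome sequence. The first 4 are the highest intronic members whose window holds no untranslated region, after those on a chromosome from which no sequence is shown. Capitals mark the core AAGTG and the words CGCACA, the alternating GCGCGC and the repeat GAGAGA on either strand, and 2 of the 4 hold none of them.
klp-6 (chrIII:5031622-5031722): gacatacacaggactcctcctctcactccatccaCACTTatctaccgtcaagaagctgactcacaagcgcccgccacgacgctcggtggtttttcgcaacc
mdt-26 (chrII:5661819-5661919): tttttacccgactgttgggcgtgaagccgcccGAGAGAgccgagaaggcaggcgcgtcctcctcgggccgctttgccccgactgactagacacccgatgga
tba-7 (chrIII:11371402-11371502): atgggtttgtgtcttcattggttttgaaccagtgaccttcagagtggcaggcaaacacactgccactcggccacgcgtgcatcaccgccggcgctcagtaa
Y43F8B.2 (chrV:19522503-19522603): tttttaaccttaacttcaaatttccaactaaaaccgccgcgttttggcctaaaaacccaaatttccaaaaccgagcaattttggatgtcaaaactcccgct

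The next is the highest intronic member, among those whose window holds no untranslated region, with the longer NK-2 class site TNAAGTG in its 101 bases, marked in capitals, which here lies on the minus strand.
pnp-1 (chrIV:297969-298069): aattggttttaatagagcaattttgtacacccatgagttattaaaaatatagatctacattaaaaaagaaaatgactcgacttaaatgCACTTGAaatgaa

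The last 3 are the highest intronic members, chosen among the same windows without untranslated region, that hold 3 or more of the words GCCGGA and ATCGGC or, overlapping these, AAATCG and GGCAAA, marked in capitals, which were picked after their shares had been seen. The same short unit recurs several times within each window.
Y45F10A.7 (chrIV:13494209-13494309): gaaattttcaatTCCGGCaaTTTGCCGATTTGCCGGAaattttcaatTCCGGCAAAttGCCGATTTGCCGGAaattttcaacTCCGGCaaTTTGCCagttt
BE10.4 (chrIII:12814150-12814250): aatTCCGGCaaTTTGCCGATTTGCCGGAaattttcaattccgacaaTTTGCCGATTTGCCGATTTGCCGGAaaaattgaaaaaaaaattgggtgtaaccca
C18D11.1 (chrIII:11817280-11817380): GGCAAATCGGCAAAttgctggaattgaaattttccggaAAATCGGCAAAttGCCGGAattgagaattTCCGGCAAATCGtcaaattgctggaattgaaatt

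As a share of all peaks, downstream peaks were scarce at the top of the ranking. They made up 4.71% (95% interval 2.77 to 7.89) of the peaks at ranks 1 to 276, 12.4% (10.2 to 15.0) at ranks 277 to 1000, 17.4% (15.2 to 19.9) at ranks 1001 to 2000 and 19.9% (17.5 to 22.5) at ranks 2001 to 3000. Beyond rank 3000 their share lay between 20.4% and 21.2%. Over all 3000 peaks they made up 15.9%, against 20.7% of the lower-ranked peaks, a difference of -4.88 percentage points (-6.23 to -3.44). In the replicate 1 list alone the same shares were 17.6% and 20.5% (difference -2.94, -4.35 to -1.46), and in the replicate 2 list 17.3% and 22.4% (difference -5.17, -6.58 to -3.69). The share at the top was thus below that further down in all 3 lists, which share the same control and, for the pooled list, the same samples. The totals include the 2 classes that the rule leaves out. Peaks at RNA genes made up 10.9% of the 3000 highest and 1.1% of the lower-ranked peaks. Those upstream of 2 genes on opposite strands made up 7.4% and 2.4%. Among peaks away from tRNA, snoRNA, snRNA and rRNA genes, the downstream share was 10.2% (6.03 to 16.6) at ranks 1 to 276 and 20.6% (18.1 to 23.2) at ranks 2001 to 3000. Peaks upstream of 2 genes on opposite strands still count there, at 16.3% and 4.2% of all peaks of these ranks. The downstream share without both classes was not computed.

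**Figure D1:**
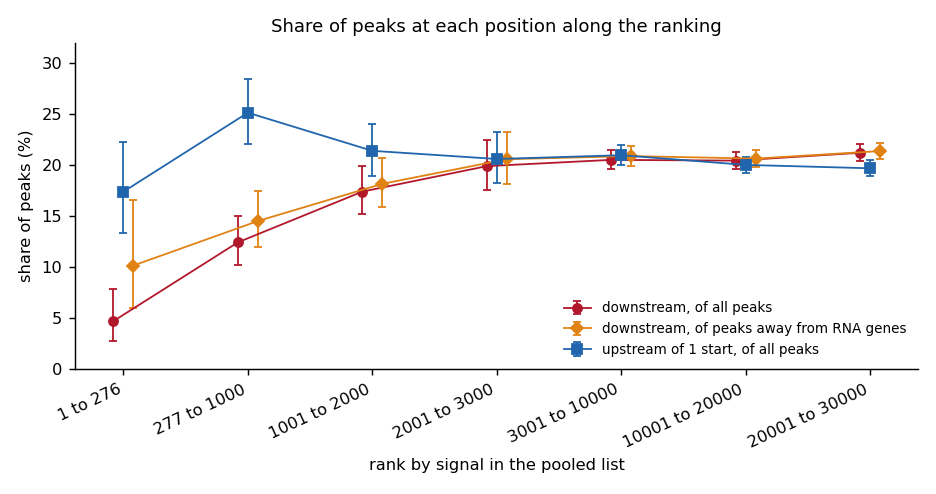
Share of peaks (%) downstream of the nearest coding start (circles), the same among peaks away from tRNA, snoRNA, snRNA and rRNA genes (diamonds), and upstream of 1 coding start (squares), by rank in the pooled list; bars are Wilson 95% intervals. The downstream share goes from 4.71% at ranks 1 to 276 to 19.9% at ranks 2001 to 3000, and the upstream share is highest, at 25.1%, at ranks 277 to 1000.

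The highest member lay in an intron of ints-8, which encodes a subunit of the Integrator complex, which cleaves nascent RNA. Its summit was at position 13463940 of chromosome I, 906 bp past a later start of the gene, and 15 bp from rpr-1, the gene of the RNA of ribonuclease P. The pooled signal was 312, and the overlapping peaks of replicates 1 and 2 had signals of 152 and 169 and stood at ranks 22 and 10. A second member in the same intron, at 13464155 and inside rpr-1, had a pooled signal of 143 and overlapped the same replicate peaks. These 2 members are therefore 1 region.

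The second-ranked gene was klp-6, which encodes a kinesin, a motor protein that walks along microtubules. Its summit on chromosome III lay in the second intron, 743 bp past the start and inside the noncoding RNA gene srpr-2.2. The pooled signal was 225, and the replicate peaks had signals of 112 and 110 at ranks 48 and 45. The member in the first intron of tba-7, an alpha-tubulin gene, lay inside the noncoding RNA gene T28D6.15 and had a pooled signal of 159, with replicate signals of 84.5 and 69.9. At B0284.3 the summit was 28 bp from srpr-1.1, with a pooled signal of 130 and replicate signals of 73.9 and 69.6. All 5 of these members ranked within the first 200 peaks of both replicate lists.

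The highest member with no noncoding RNA gene within 250 bp was in an intron of mdt-26, which encodes a subunit of Mediator, the complex between transcription factors and RNA polymerase II. It had a pooled signal of 161. Its replicate signals were unequal, 111 in replicate 1 and 39.1 in replicate 2, at ranks 50 and 1358. The window shown above had a GC content of 64.4%.

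cox-5B, a subunit gene of cytochrome c oxidase, had its summit in the 5′ UTR, 12 bp past the start, with a pooled signal of 143 and replicate signals of 80.4 and 65.6. In the 5′ UTR of egl-30, which encodes the alpha subunit of the G protein Gq, the values were 127, 59.7 and 88.0. atp-1, which encodes the alpha subunit of ATP synthase, also had its summit in the 5′ UTR, with 108, 41.7 and 50.5. That summit lay 70 bp from the piRNA gene 21ur-12279 and within 1000 bp upstream of another gene's start. These 3 members were among the first 1000 peaks of both replicate lists. ctf-4, by contrast, had a pooled signal of 113 and a replicate 2 signal of 60.0 but overlapped no peak of the replicate 1 list.

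Of the other members in the optimal list, Y43F8B.2 and Y43F8A.2 had intronic summits with pooled signals of 109 and 109, and hsp-16.48, a small heat shock gene, had one of 103 at a summit in no protein-coding transcript. The summit at Y43F8A.2 lay 110 bp from the noncoding RNA gene Y43F8A.7. Among the 25 highest members were also his-72, which encodes the histone variant H3.3, with a pooled signal of 95.5 and replicate signals of 48.5 and 69.9, and xbp-1, a transcription factor of the unfolded protein response, with 87.2, 27.9 and 62.5. The others were D2096.7, srw-85, his-24, Y39A1C.1, Y41C4A.9, Y54F10BM.3, F54F2.6, Y45F10A.7, F21F3.6 and unc-62, with pooled signals from 86.9 to 99.2.

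**Figure D2:**
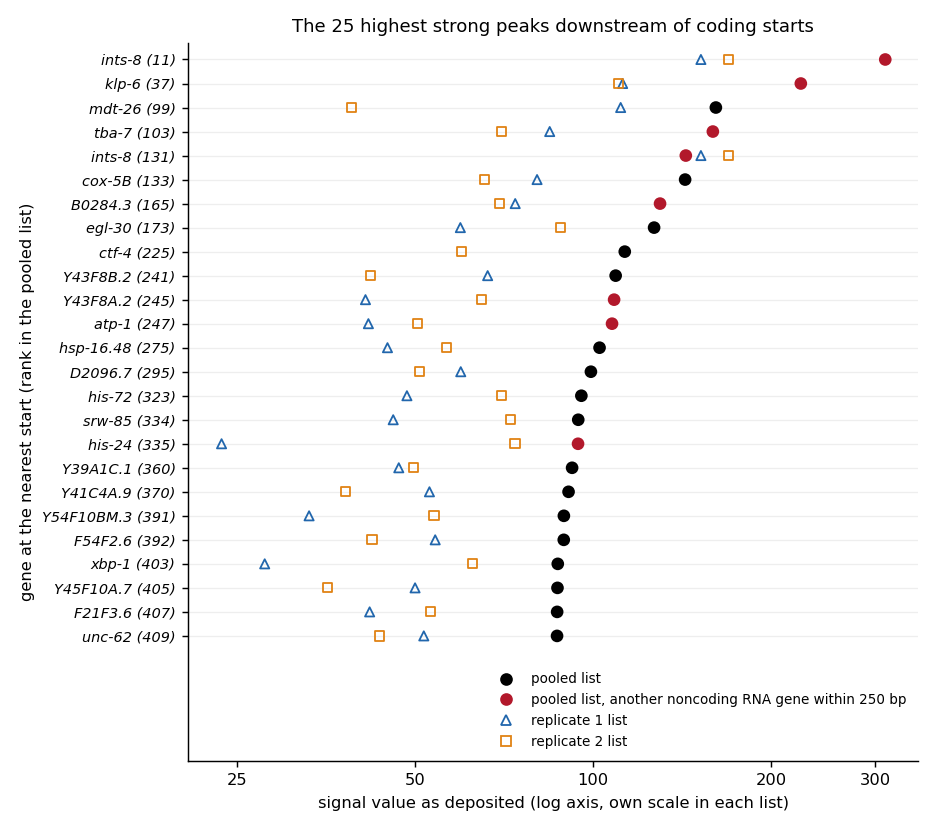
Signal value as deposited (log axis) of the 25 highest members in the pooled list (filled circles) and of the overlapping peak in the replicate 1 list (triangles) and the replicate 2 list (squares); the scale differs between lists. Red marks members with another noncoding RNA gene within 250 bp, and they hold 4 of the 5 highest places, of which the 2 at ints-8 are 1 region. ctf-4 has no replicate 1 value.

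Few members reached the usual threshold of significance, which is a q-value, the authors' false discovery rate of a peak, of 0.05 or less. In the pooled list 27 members did (5.67%, 3.93 to 8.13), where 1.4% of all pooled peaks did. The members were chosen by the signal of that same list, so nothing is read from the excess. In the replicate 1 list 17 members (3.57%) overlapped a peak at that threshold, where 0.76% of all its peaks reached it. In the replicate 2 list 67 members (14.1%) did, where 2.59% reached it. In both lists 14 did (2.94%), beside 0.161% of lower-ranked downstream peaks and 6.92% of strong upstream peaks. The optimal list, the authors' list of reproducible peaks, held 13 members, and 0.92% of all pooled peaks were in it. Of the strong upstream peaks 14.2% reached the threshold in the pooled list and 7.38% were in the optimal list, which exceeds the members' shares by 8.48 (5.00 to 11.9) and 4.65 (2.07 to 7.19) percentage points.

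Nearly all members overlapped some peak of each replicate list, but seldom a strong one in both. A peak of both lists overlapped 430 members by 1 bp or more (90.3%, 87.3 to 92.7), beside 34.9% of lower-ranked downstream peaks and 88.0% of strong upstream peaks, the latter a difference of 2.34 percentage points with an interval that spanned 0 (-1.42 to 5.93). Of the members, 22 overlapped none in replicate 1 and 24 none in replicate 2. Peaks of rank 3000 or better in both lists overlapped 65 members (13.7%, 10.9 to 17.0), against 24.3% of the strong upstream peaks, a difference of -10.7 percentage points (-15.1 to -6.04). In replicate 1 alone such a peak overlapped 156 members, in replicate 2 alone 134, and in neither 121. Over the 430 members with a peak in both lists, Spearman's correlation of the replicate signals was -0.16. These members were selected on the pooled signal, to which both replicates contribute, so this is a description of the chosen set, not a measure of reproducibility.

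The members with the most unequal ranks were his-24, a linker histone gene whose summit lay inside the noncoding RNA gene M163.16, and ttm-1, a zinc transporter gene. his-24 stood at rank 12456 in replicate 1 and 135 in replicate 2, with signals of 23.5 and 73.8. ttm-1 stood at ranks 22751 and 250, with signals of 18.8 and 59.6. In the other direction, tag-124 stood at ranks 341 and 22908, with signals of 52.5 and 17.5, and hrg-10 at ranks 439 and 26577, with 49.0 and 16.2. Each of these members stood high in 1 of the 2 replicate lists alone.

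When the rule was applied to each replicate list alone, it chose 527 peaks in replicate 1 and 518 in replicate 2. Of these, 44 overlapped between the replicates, 8.35% (6.28 to 11.0) of the first set and 8.49% (6.39 to 11.2) of the second. Over all 3000 highest peaks of each list, 24.1% (22.6 to 25.7) in replicate 1 and 25.4% (23.9 to 26.99) in replicate 2 overlapped one of the other list. For those upstream of 1 coding start, matched among themselves in the same way, the shares were 20.8% (18.0 to 24.0) and 23.1% (20.0 to 26.7). The replicate 1 set overlapped 40.3% of the 476 pooled members and the replicate 2 set 36.1%. The windows of the 2 sets differed in base composition, with a mean GC content of 35.1% (95% interval 34.5 to 35.7) in replicate 1 and 40.7% (39.9 to 41.5) in replicate 2. The part that base composition has in this overlap was not tested.

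**Figure D3:**
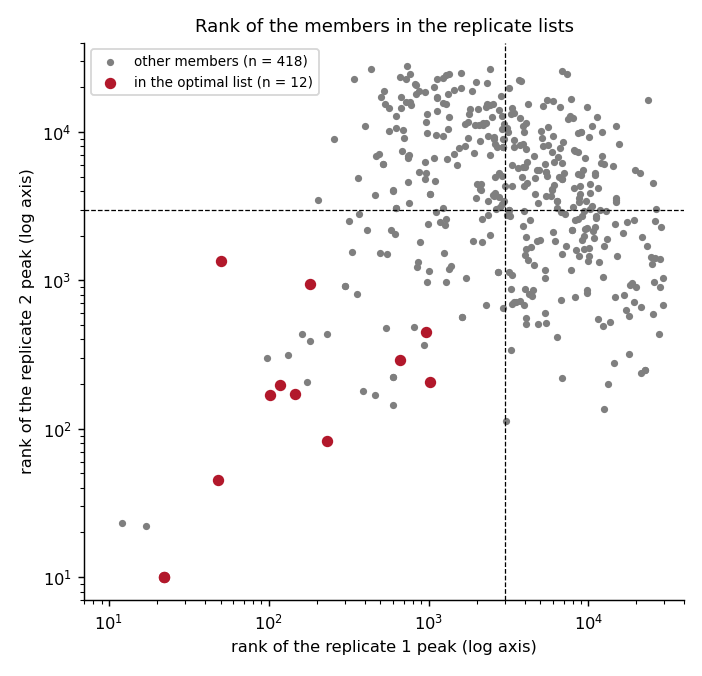
Rank of the overlapping peak in the replicate 1 list against that in the replicate 2 list (both log axes) for the 430 members with a peak in both; dashed lines are at rank 3000 and red points are in the optimal list. The 12 optimal members shown have ranks better than 3000 on both axes, and most others lie past a line on at least 1 axis.

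Summits of members fell in introns more often than anywhere else. By the annotation, 254 lay in an intron (53.4%, 48.9 to 57.8), 138 in a coding exon (29.0%, 25.1 to 33.2), 47 in a 5′ UTR (9.87%, 7.51 to 12.9), 14 in a 3′ UTR and 23 in no protein-coding transcript. Of the lower-ranked downstream peaks 51.3% lay in introns, a difference of 2.05 percentage points with an interval that spanned 0 (-2.63 to 6.68). They lay more often in coding exons, at 36.5%, a difference of -7.54 (-11.6 to -3.13), and less often in 5′ UTRs, at 6.61%, a difference of 3.27 (0.805 to 6.34). Among the summits 250 to 1000 bp past the start, the shares in introns and in coding exons both differed. There 71.8% of 287 members were intronic against 61.8% of 3774 lower-ranked peaks, a difference of 9.93 (4.25 to 15.1), and 14.3% were in coding exons against 28.4%, a difference of -14.1 (-18.0 to -9.38). Within 250 bp of the start, 25.4% of 189 members were intronic and 51.3% lay in coding exons, and both differences from lower-ranked peaks had intervals that spanned 0.

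Of the 254 intronic members, 148 lay in the first intron of the transcript (58.3%), against 55.4% of intronic lower-ranked peaks. The introns that held them had a median length of 784 bp, against 649 bp, and 71.7% (65.8 to 76.8) were 500 bp or longer, against 61.2% (59.4 to 63.0).

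In the pooled list, members lay somewhat closer to the start than lower-ranked downstream peaks did. Their median distance was 364 bp (quartiles 127 and 625), against 408 bp (quartiles 183 and 692), and 96 of them (20.2%, 16.8 to 24.0) lay within 99 bp of the start, against 14.4%, a difference of 5.76 percentage points (2.27 to 9.70). With the rule applied to replicate 1 alone, the medians of strong and lower-ranked downstream peaks were 361 and 414.5 bp, and with replicate 2 alone 402.5 and 418.5 bp. The difference in the share within 99 bp was 3.64 (0.413 to 7.28) in replicate 1 and 1.82 (-1.18 to 5.29) in replicate 2, where its interval spanned 0. At 750 to 1000 bp the shares were 16.0% and 20.4%, a difference of -4.41 (-7.61 to -0.697). All members are 496 bp wide, so the interval of the 189 members under 250 bp covers the start itself, and signal on its 2 sides cannot be told apart there. The median distance of the strong upstream peaks from their start was 361 bp, on the other side.

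**Figure D4:**
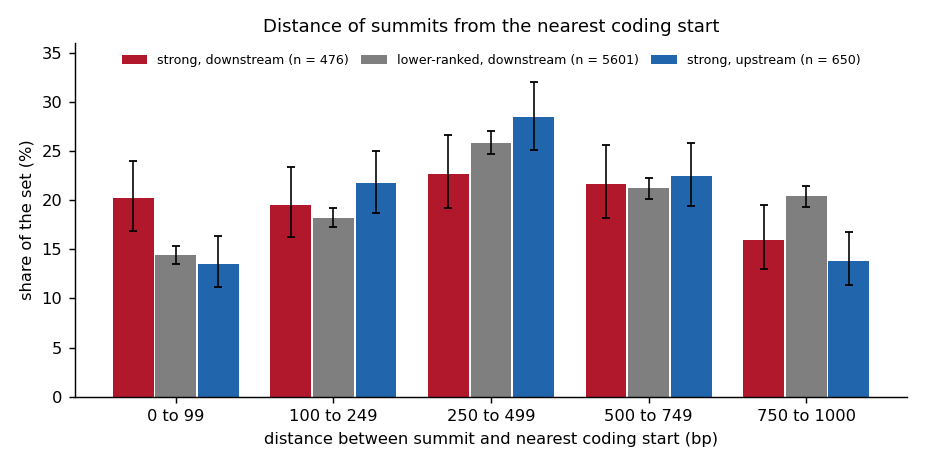
Share (%) of each set in 5 classes of distance (bp) between the summit and the nearest coding start, for the 476 members, the 5601 lower-ranked downstream peaks and, on the other side of the start, the 650 strong upstream peaks; bars carry Wilson 95% intervals. The members are at 20.2% in the class nearest the start, above both other sets, and their shares in the 5 classes lie between 16.0% and 22.7%.

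The nearest start was the first start of its gene for 305 members (64.1%, 59.7 to 68.3) and a later, internal start for the other 171. For lower-ranked peaks the share was 67.6%, a difference of -3.52 (-8.09 to 0.841), and for strong upstream peaks it was 80.3%, a difference of -16.2 (-21.5 to -10.9). Among all members, 70 (14.7%, 11.8 to 18.2) also lay within 1000 bp upstream of the start of another gene, against 10.2% of lower-ranked peaks, a difference of 4.49 (1.48 to 8.04). For these, position alone does not say which gene the peak belongs to. Another pooled peak with a higher signal lay within 500 bp of 33 members (6.93%, 4.98 to 9.58), beside 6.62% (4.95 to 8.79) of strong upstream peaks. For 16 of the 33, the highest such peak was itself a member.

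The X chromosome held 43 members (9.03%, 6.78 to 11.9), against 14.2% of lower-ranked downstream peaks and 17.7% of strong upstream peaks, differences of -5.14 (-7.59 to -2.10) and -8.66 (-12.5 to -4.66). Chromosome III held 99 (20.8%, 17.4 to 24.7), against 15.2% of lower-ranked peaks, a difference of 5.55 (2.01 to 9.53), and 18.2% of strong upstream peaks, a difference of 2.64 with an interval that spanned 0 (-1.99 to 7.41).

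**Figure D5:**
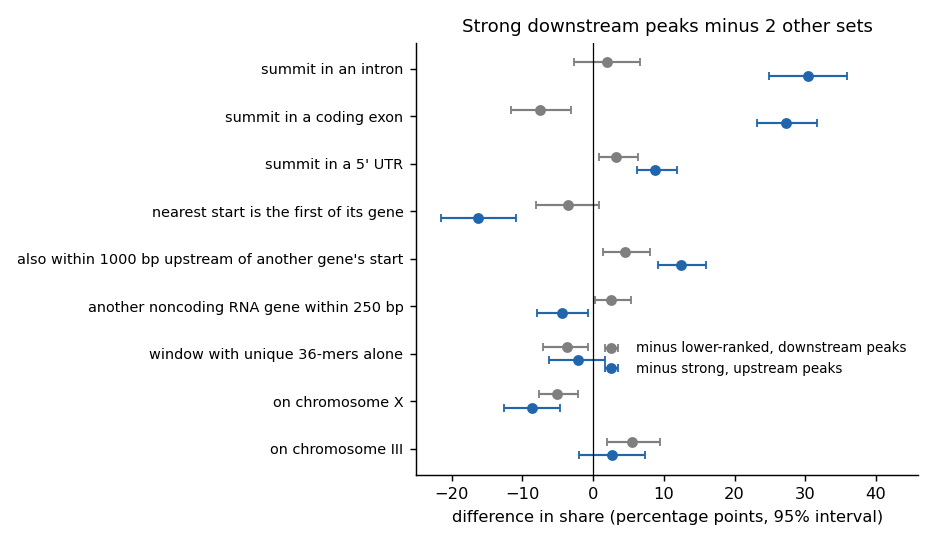
Difference in share (percentage points) between the members and the lower-ranked downstream peaks (grey) or the strong upstream peaks (blue), with Newcombe 95% intervals. Coding exon and chromosome X lie below 0 against lower-ranked peaks, at -7.54 and -5.14; the large differences from upstream peaks in introns and exons follow from the side of the start that the rule fixes.

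The rule leaves out tRNA, snoRNA, snRNA and rRNA genes but no other noncoding RNA genes, and some of the latter lay under the highest members. In all, 39 members (8.19%, 6.05 to 11.0) had such a gene within 250 bp, against 5.68% of lower-ranked downstream peaks, a difference of 2.52 percentage points (0.281 to 5.39), and 12.6% of strong upstream peaks, a difference of -4.42 (-7.93 to -0.768). The summit of 12 members lay inside the gene. By type, 27 were annotated as ncRNA, 8 as piRNA, 2 as antisense RNA and 1 each as miRNA and lincRNA. Among the 27 members with a q-value of 0.05 or less the share was 33.3% (18.6 to 52.2), and among the other 449 it was 6.68% (4.72 to 9.38). The 10 highest members had 5 (interval 23.7% to 76.3%), and the 13 members of the optimal list had 7. The 2 members at ints-8, which are 1 region at rpr-1, are counted separately in all of these values. Beyond the genes named so far, apm-1, which encodes a subunit of a clathrin adaptor, had its summit inside F55A12.11 with a pooled signal of 79.6, and aak-2, a catalytic subunit of AMP-activated kinase, lay 174 bp from T01C8.9 with 76.5. The summit at Y53G8AL.4, with 86.7, lay inside the gene of the microRNA mir-4936. Whether the signal at these members belongs to the coding gene or to the RNA gene cannot be told apart from position.

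GC content over the 201 bp around the summit had a mean of 37.3% (SD 7.85, n = 476), against 36.4% (SD 7.21, n = 5601) for lower-ranked downstream peaks and 38.0% (SD 7.83, n = 650) for strong upstream peaks. The 95% interval of the members' mean was 36.6% to 38.0%. Within the members, GC content was 45.4% (SD 9.33) over the 27 with a q-value of 0.05 or less and 36.8% (SD 7.49) over the other 449.

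The NK-2 class core was not more frequent in the members than in weaker peaks of the same position. AAGTG was searched on both strands of the same 201 bp and was present in 143 members (30.04%, 26.1 to 34.3), against 36.5% of lower-ranked downstream peaks, a difference of -6.49 percentage points (-10.6 to -2.04), and 35.1% of strong upstream peaks, a difference of -5.03 (-10.5 to 0.528). Among intronic summits the shares were 24.4% and 34.3% for members and lower-ranked peaks, a difference of -9.93 (-15.1 to -4.04), and among summits in coding exons 34.1% and 38.4%, a difference of -4.31 (-12.0 to 4.19). By GC content of the window, the difference was -14.7 (-21.9 to -6.05) at 35% to 40%. It was -5.27 (-11.5 to 1.65) below 35%, -0.06 (-10.4 to 11.4) at 40% to 45% and -2.99 (-13.2 to 8.76) from 45% on. These last intervals spanned 0. With the rule applied to 1 replicate alone, AAGTG was present in 32.8% in replicate 1 and 34.6% in replicate 2. The longer site TNAAGTG, which contains the core, was present in 37 members (7.77%, 5.69 to 10.5), against 8.91% of lower-ranked and 7.54% of strong upstream peaks, and both differences had intervals that spanned 0. The highest intronic member with this site in the 101 bases around its summit, and no untranslated region there, was the one at pnp-1, with a pooled signal of 71.4 and replicate signals of 40.9 and 18.6.

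The words CGCACA and GAGAGA, and likewise GCGCGC, were rarer in the members than in strong upstream peaks. TTTCAG was more frequent in the members, present in 193 of 476 (40.5%) against 195 of 650 strong upstream peaks, a difference of 10.5 percentage points (4.90 to 16.2), and the share in lower-ranked downstream peaks was also 40.5%. For TATAAA and GGGCGG the differences from strong upstream peaks were 0.881 (-3.75 to 5.64) and -2.09 (-4.82 to 0.786), and both intervals spanned 0. CGCACA was present in 22 members (4.62%, 3.07 to 6.90) and 12.0% of strong upstream peaks, a difference of -7.38 (-10.5 to -4.16), and the share in lower-ranked downstream peaks was 4.89%. GAGAGA was present in 48 members (10.1%, 7.69 to 13.1) and 15.5% of strong upstream peaks, a difference of -5.45 (-9.28 to -1.47), beside 8.94% of lower-ranked downstream peaks. GCGCGC was present in 15 members (3.15%), 7.69% of strong upstream peaks and 1.48% of lower-ranked downstream peaks, with differences of -4.54 (-7.16 to -1.86) and 1.67 (0.388 to 3.67). For CGCACA and GAGAGA the members thus differed from strong upstream peaks and not detectably from weaker peaks on their own side of the start.

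Of all 2080 words of 6 bases, each counted together with its reverse complement, several that overlap in 1 short unit stood near the top of the list ordered by the difference between members and lower-ranked downstream peaks. AAATCG was present in 32.4% against 23.6%, GGCAAA in 21.8% against 15.6%, GCCGGA in 13.9% against 7.77% and ATCGGC in 12.4% against 7.32%. These words were picked for their difference, so the values are a description. Windows with 3 or more of the 4 words numbered 35 of the 476 (7.35%, 5.33 to 10.0), against 3.20% of lower-ranked downstream peaks and 4.46% of strong upstream peaks. Of the 66 members with GCCGGA, 36.4% (25.8 to 48.4) held a 36-base stretch that occurs more than once in the genome, the same window included. Of the 410 members without GCCGGA, 10.0% (7.46 to 13.3) held such a stretch. Among windows free of such stretches, GCCGGA was present in 10.2% of 411 members and 6.15% of 5039 lower-ranked peaks. Inexact copies were not counted, so these windows can hold diverged copies of the unit, and nothing is read from this difference. Over all members, 86.3% (83.0 to 89.1) of windows held only stretches unique in the genome, against 90.0% of lower-ranked downstream peaks, a difference of -3.62 (-7.08 to -0.710). The treatment of reads that match several places is not given in the sources. The 3 intronic windows shown above had pooled signals of 87.1 at Y45F10A.7, 79.8 at BE10.4 and 75.8 at C18D11.1, and replicate signals of 50.01 and 35.6, 25.3 and 43.3, and 34.2 and 31.6.

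The members lay at 452 genes, 2.26% of the 19973 protein-coding genes on nuclear chromosomes, and formed 460 separate regions. Genes with more than 1 member numbered 20. At unc-62, which encodes a homeodomain partner of Hox proteins, 4 members lay at separate internal starts, with pooled signals of 86.9, 66.1, 58.4 and 54.9. At mbk-2, a kinase gene of the early embryo, 4 members also lay at internal starts, with pooled signals of 73.1, 71.3, 67.3 and 55.2, and each stood at a better rank in replicate 1 than in replicate 2. At most of the other genes the members were adjacent summits of the same replicate peaks, as at ints-8.

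Of 25 gene lists, 24 held a gene with a member, and the share of genes was above 2.26% in 20. The interval lay above that value in 4 lists and below it in none, and no allowance was made for the number of lists. Genes with several transcript starts have more chances to hold a member. Over all genes there were 1.62 members per 100 starts, and 9.13% of the genes with any downstream peak in the pooled list had a member.

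Homeobox genes, which encode transcription factors of the class that CEH-24 belongs to, had a member at 6 of 102 genes (5.88%, 2.72 to 12.2), or 5.58 members per 100 starts. Besides unc-62 these were ceh-43, the Distal-less gene, with a pooled signal of 58.9, ttx-1, which specifies a thermosensory neuron, with 58.6 and 56.2, ceh-51, which acts in early muscle and pharynx, with 56.8, the posterior Hox gene php-3 with 56.7 and 54.6, and ceh-54 with 55.3. Apart from the highest unc-62 peak, none overlapped a peak of rank 3000 or better in both replicates; at ttx-1 the replicate ranks were 3169 and 2986. The 2 members at ttx-1, and likewise the 2 at php-3, were adjacent summits of the same replicate peaks. The number per 100 starts counts such summits separately, here as over all genes. The list's median signal was 56.8, below the 59.5 of all members.

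RNA polymerase II, Mediator and Integrator genes had a member at 4 of 66 genes (6.06%, 2.38 to 14.6). The lower bound is close to the 2.26% of all genes. The count includes ints-8, whose members lay 15 bp from and inside rpr-1, and the share without ints-8 was not computed. ints-8 and mdt-26 were described above, ints-3, another Integrator subunit gene, had a pooled signal of 73.5 with replicate signals of 31.4 and 39.1, and rpb-11, a polymerase subunit gene, had 61.6 with 66.4 and 52.4. Synapse, ion channel and G protein genes had one at 12 of 287 (4.18%, 2.41 to 7.16), led by egl-30, lgc-53, a ligand-gated channel gene, with 69.9, and acr-6, an acetylcholine receptor subunit gene, with 68.9. Per 100 starts these held 2.18 members. Signalling, kinase and cell death families had one at 7 of 133 (5.26%, 2.57 to 10.5), led by aak-2, kin-14 with 66.2 and mig-38 with 60.0, with 2.09 members per 100 starts. lin-17, a Frizzled receptor of Wnt signalling, was among them with 59.1.

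The remaining lists had intervals that included 2.26%. Vesicle traffic genes had a member at 7 of 160 genes, led by apm-1, unc-11, a clathrin adaptor gene, with 73.2, and tbc-6 with 69.4. Cell cycle and DNA replication genes had one at 5 of 114, led by cdk-9, a kinase that acts on elongating RNA polymerase II, with a pooled signal of 85.3 and replicate signals of 67.0 and 64.6, and pola-1, a DNA polymerase alpha gene, with 66.3. Tubulin, kinesin and dynein genes had one at 3 of 57, the third being dlc-1, a dynein light chain gene, with 68.9. Cytosolic ribosomal protein genes had one at 3 of 78, which were rpl-41.2 with 69.1, rps-3 with 58.1 and rpl-24.2 with 55.0. Muscle and actin cytoskeleton genes had one at 3 of 87, which were act-4, an actin gene, with 81.1, deb-1, which encodes vinculin, with 56.6, and unc-60, which encodes cofilin, with 54.7. Other transcription factors had one at 6 of 196, led by xbp-1, the forkhead gene fkh-7 with 80.1 and ztf-20 with 74.5. Histone genes had his-72 and his-24 of 72 genes.

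Lists with few members included nuclear hormone receptors, with 3 of 274 genes (1.09%, 0.373 to 3.17), neuropeptides, with 2 of 146 (1.37%, 0.376 to 4.86), and ubiquitin system genes, with 9 of 492 (1.83%, 0.965 to 3.44), led by the F-box genes fbxa-206 with 71.0 and fbxa-139 with 69.8. Aminoacyl-tRNA synthetases had none of 31 genes, which allows a share of up to 9.68% at 3 counts of 31, and the Wilson interval reaches 11.0%. Among the nuclear hormone receptors the members were nhr-256 with 70.5, nhr-95 with 58.5 and fax-1, which acts in neurons, with 55.6. The neuropeptide members were nlp-12 with 67.8 and nlp-79 with 53.9.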

How the data were processed

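CEH-24-GFP ChIP-seq peak lists of 2 biological replicates, 1 group, were used on build ce11, whose chromosome lengths fit the reference WBcel235. Per the file headers, the replicate and pooled lists hold relaxed calls, background included, that fed the irreproducible discovery rate procedure, and the optimal list holds peaks that passed it. The signal value and the −log10 q-value of each peak are the authors' own, as deposited. Aligner and peak caller: not given in the sources used here.

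Peaks were placed with Ensembl release 115 (29314 coding starts on nuclear chromosomes) and sequence read from RefSeq, in Python 3.11.15 (numpy 2.4.6, pandas 2.3.3, scipy 1.17.1, matplotlib 3.10.9). A summit counts in the first of coding exon, 5′ UTR, 3′ UTR and intron that any transcript gives there. Peaks overlap with 1 bp or more. The start finder, word search and intervals were checked on simulated data. Genes were matched to lists by symbol. Named genes are the 25 highest members, all in the optimal list, the leading members of each list, the most unequal replicate ranks and the edges of the rule, and others were named after their values were seen. The members and lists were chosen with earlier results of these data known. After the counts had been seen, lin-1, gfi and tfg genes, which did not belong there, were taken out of 3 lists, gfi-2 being a member, and 2 lists were renamed after what they hold.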

Additional observations from a re-analysis of the deposited data

How the results depend on the processing

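Of 83 recomputed values, 56 stayed and 27 moved, which for the number of members means by over 1.5 times and for other values outside the 95% interval of the reported value. With the 1500 highest peaks there were 176 members, 48.9% intronic, at a median of 308 bp, with a mean GC content of 38.8% and 94.3% in both replicate lists. With the optimal list alone there were 13, at a median of 597 bp, with a GC content of 47.8%, CGCACA in 15.4%, GAGAGA in 30.8%, AAGTG in 46.2% and another noncoding RNA gene near 53.8%, all on few peaks. Limited to 500 bp the rule gave 297 members, 41.1% intronic, at a median of 174 bp. From 250 bp on, a choice made after seeing the data, it gave 287, 71.8% intronic, at 569 bp and 36.2% GC. In windows of 50 bp on each side CGCACA fell to 2.31%, GAGAGA to 6.09% and AAGTG to 14.5%, as shorter windows hold fewer words. With overlap over 50% of the interval, 84.5% were in both lists. In 1 replicate alone, the median distance lay between 361 and 402.5 bp, GC content between 35.1% and 40.7%, and AAGTG between 32.8% and 34.6%. Leaving out members near other noncoding RNA genes, also added after seeing the data, moved none of the values it could bear on. No paired analysis was possible because there is 1 group. Depth is unknown, so no value here is tied to read number.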
